A study of Mus musculus with 24 samples.

Results

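Expression of 8 genes for transcription factors of the macrophage lineage was followed through populations of lung macrophages and monocytes sorted from mice with and without a lung tumour. The genes were Maf, Spi1, Cebpa, Cebpb, Bhlhe40, Bhlhe41, Klf4 and Zeb2. Each was taken by its symbol from a deposited table of 37979 genes, and each symbol had 1 row, so all 8 members were found and all 8 reached the minimum for testing. Values are FPKM (fragments mapped to a gene, scaled for its length and for the size of the library).

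The table held 24 RNA-seq libraries in 8 groups of 3. All mice were male C57BL/6 animals of 10 to 16 weeks, with no engineered allele named in the labels. Controls were uninjected (naive), and tumour-bearing mice had received LLC-Luc cells, a Lewis lung carcinoma line that carries luciferase, by injection into the left lung. MacA cells were sorted as SiglecF+ and CD11c+, the surface phenotype of alveolar macrophages, from naive lungs (MacA-N) and at 2 weeks of tumour growth (MacA-2wk). MacB1 cells (CD11b+, Ly6G-, CD64 low, CD11c+) were sequenced from naive lungs only (MacB1-N). MacB2 cells (CD11b+, Ly6G-, CD64 intermediate, CD11c-) came from naive lungs (MacB2-N) and from tumour-bearing lungs at 2 and 3 weeks (MacB2-2wk, MacB2-3wk). MacB3 cells (CD11b+, Ly6G-, CD64 high, CD11c+) came from tumour-bearing lungs at 2 and 3 weeks (MacB3-2wk, MacB3-3wk). Each library held sorted cells from 3 to 5 pooled mice, with independent experiments behind the replicates of a group, so every group has n = 3 and the spread given is that between pools. Naive lungs were used whole, whereas tumour-bearing mice gave only the left lobe with the tumour, so tumour and lobe cannot be told apart.

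A few features of the libraries touch the results. Lane 1 held the 6 MacA libraries, and lanes 2, 3 and 7 held MacB replicates 1, 2 and 3, so that population and lane cannot be told apart between MacA and MacB. The closest library by correlation belonged to the same group for 22 of the 24; the exceptions, MacA-2wk replicates 2 and 3, were closest to MacA-N. MacA-2wk replicate 3 had a summed level of 12 fibroblast markers of 650 FPKM, against 168 and 134 FPKM in the other two. In MacB2-N replicate 3 the 14 endothelial markers summed to 1049 FPKM, against 364 and 384 FPKM. The 14 alveolar macrophage markers, which include Pparg, summed to 1434 FPKM in MacB1-N replicate 3, against 830 and 767 FPKM in replicates 1 and 2. Of the sorting markers, Siglecf was at 231 FPKM in MacA-N and 146 FPKM in MacA-2wk against 0.942 to 5.25 FPKM in the MacB groups, while Ly6g was listed at 0 in all 24 libraries and could not check its gate. Absolute depth cannot be read from FPKM; relative depth, from the steps between low values, ran from 0.51 to 1. For Cebpb and Bhlhe40 the table lists an interval of 137.1 and 89.9 kb where the gene spans 1.5 and 6.3 kb, so it is uncertain what those rows counted and how they were scaled for length. In bulk samples such as these, fewer cells of a type and less RNA per cell cannot be told apart.

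As background, macrophages are specified by a small set of DNA-binding proteins that act together on enhancers. PU.1, encoded by Spi1, is the pioneer factor of all myeloid cells, and the C/EBP factors, encoded by Cebpa and Cebpb, work beside it. Maf drives genes of mature tissue macrophages and restrains their proliferation. Bhlhe40 and Bhlhe41 are related basic helix-loop-helix repressors that are needed for the identity and self-renewal of alveolar macrophages. Klf4 supports the differentiation of monocytes, and Zeb2, a zinc finger repressor, maintains the tissue-specific identity of macrophages and is also required for monocyte development.

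The factors recognise short DNA motifs, and the stretches upstream of the start of Bhlhe41 and Klf4 are shown because they hold the E-box CACGTG, the motif bound by Bhlhe40 and Bhlhe41 themselves. They were read from RefSeq promoters on GRCm38.p6, in which 5 of the 8 members (Cebpa, Cebpb, Bhlhe41, Klf4 and Zeb2) had an entry. Bhlhe41 is given from chr6:145865559-145865670 and Klf4 from chr4:55532476-55532725, both on the minus strand, with motif matches in capitals.
Bhlhe41: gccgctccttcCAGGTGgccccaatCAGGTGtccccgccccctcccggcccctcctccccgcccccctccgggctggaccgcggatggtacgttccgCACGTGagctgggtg
Klf4: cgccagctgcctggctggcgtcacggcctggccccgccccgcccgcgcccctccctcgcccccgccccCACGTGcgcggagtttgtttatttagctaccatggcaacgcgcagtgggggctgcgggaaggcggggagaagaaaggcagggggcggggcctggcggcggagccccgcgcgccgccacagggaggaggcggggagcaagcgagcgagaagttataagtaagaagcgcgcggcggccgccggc
In Bhlhe41 the E-box lies 153 bases upstream of the RefSeq start and in Klf4 182 bases upstream. The Bhlhe41 stretch is shorter because it stops at the first base of the longer GENCODE gene model. The 2 CAGGTG runs in Bhlhe41, at 239 and 225 bases, are the reverse complement of CACCTG, the E2-box bound by Zeb2. Both strands were searched in the 250 bases upstream of each start, for these motifs and for 4 others. The PU.1 core was written as GAGGAAG. The C/EBP core was written as TTGCGNA. The core recognised by Maf was written as TGCTGA. The Klf4 core was written as GGGTGTG. Of 32817 promoters of the same length, 6.02% held CACGTG, 17.2% CACCTG and 6.93% GGGTGTG. Outside the stretch shown, Bhlhe41 had 2 matches to the Klf4 core, at 52 and 38 bases, and GAGGAAG, present in 10.6% of all promoters, occurred once at 3 of the 4 listed starts of Zeb2. TTGCGNA (3.66% of promoters) and TGCTGA (16.1%) had no match in these entries, and the Cebpa and Cebpb entries held none of the 6 motifs. These are matches of letters, and no binding was measured.

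Maf (ENSMUSG00000055435, GRCm38 chromosome 8, 115682942 to 115707794) had the widest range of the 8 genes, 86.1-fold between the lowest and the highest group mean. The MacA-N libraries held 0.842, 1.22 and 1.39 FPKM, a mean of 1.15 ± 0.279 (SD, n = 3). In MacB1-N the libraries were at 12.6, 10.5 and 7.73 FPKM, a mean of 10.3 ± 2.42, and in MacB2-N at 33.3, 38.6 and 37.4 FPKM, a mean of 36.4 ± 2.73. The 3 naive populations thus did not overlap, with MacA-N lowest and MacB2-N highest. Maf was higher in MacB1-N than in MacA-N (log2 fold change 2.38, SE 0.17, adjusted p = 3.36e-09) and higher still in MacB2-N (log2 fold change 4.13, SE 0.17, adjusted p = 1.79e-12), and MacB1-N was below MacB2-N (log2 fold change -1.75, SE 0.17, adjusted p = 1.76e-06). Log2 fold changes here and below are differences of log2(FPKM + 1), a scale on which the change of low genes is understated. They come from limma fitted to all genes with Benjamini-Hochberg adjustment, and a gene was called at an adjusted p under 0.05 with at least a 2-fold change.

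In tumour-bearing lungs Maf in MacB2 was at 30.4, 29.2 and 34.5 FPKM at 2 weeks and 37.6, 28.9 and 32.2 FPKM at 3 weeks, and both overlap with MacB2-N. The differences from MacB2-N were a log2 fold change of -0.21 (SE 0.17, adjusted p = 0.625) and a log2 fold change of -0.15 (SE 0.17, adjusted p = 0.604), and neither was called. MacB3 stood apart, with 89.9, 100.5 and 93.6 FPKM at 2 weeks and 93.2, 98.7 and 105 FPKM at 3 weeks. Every MacB3 library exceeded every library of the other populations, and means were 94.7 ± 5.36 and 99.0 ± 5.89 FPKM. MacB3 was above MacB2 at 2 weeks (log2 fold change 1.56, SE 0.17, adjusted p = 7.99e-06) and at 3 weeks (log2 fold change 1.57, SE 0.17, adjusted p = 1.23e-05), and the difference between the times was not called (log2 fold change 0.06, SE 0.17, adjusted p = 1). MacA-2wk held 1.86, 1.52 and 2.51 FPKM. These 3 values lie above all of MacA-N without overlap, but the difference was not called (log2 fold change 0.46, SE 0.17, adjusted p = 0.294). Set against MacA-2wk, Maf was higher in MacB2-2wk (log2 fold change 3.46, SE 0.17, adjusted p = 4.01e-11) and in MacB3-2wk (log2 fold change 5.03, SE 0.17, adjusted p = 3.01e-13). In MacB3-2wk against MacB1-N, the other CD11b+ and CD11c+ population, it was also higher (log2 fold change 3.11, SE 0.17, adjusted p = 3.04e-10).

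**Figure D1:**
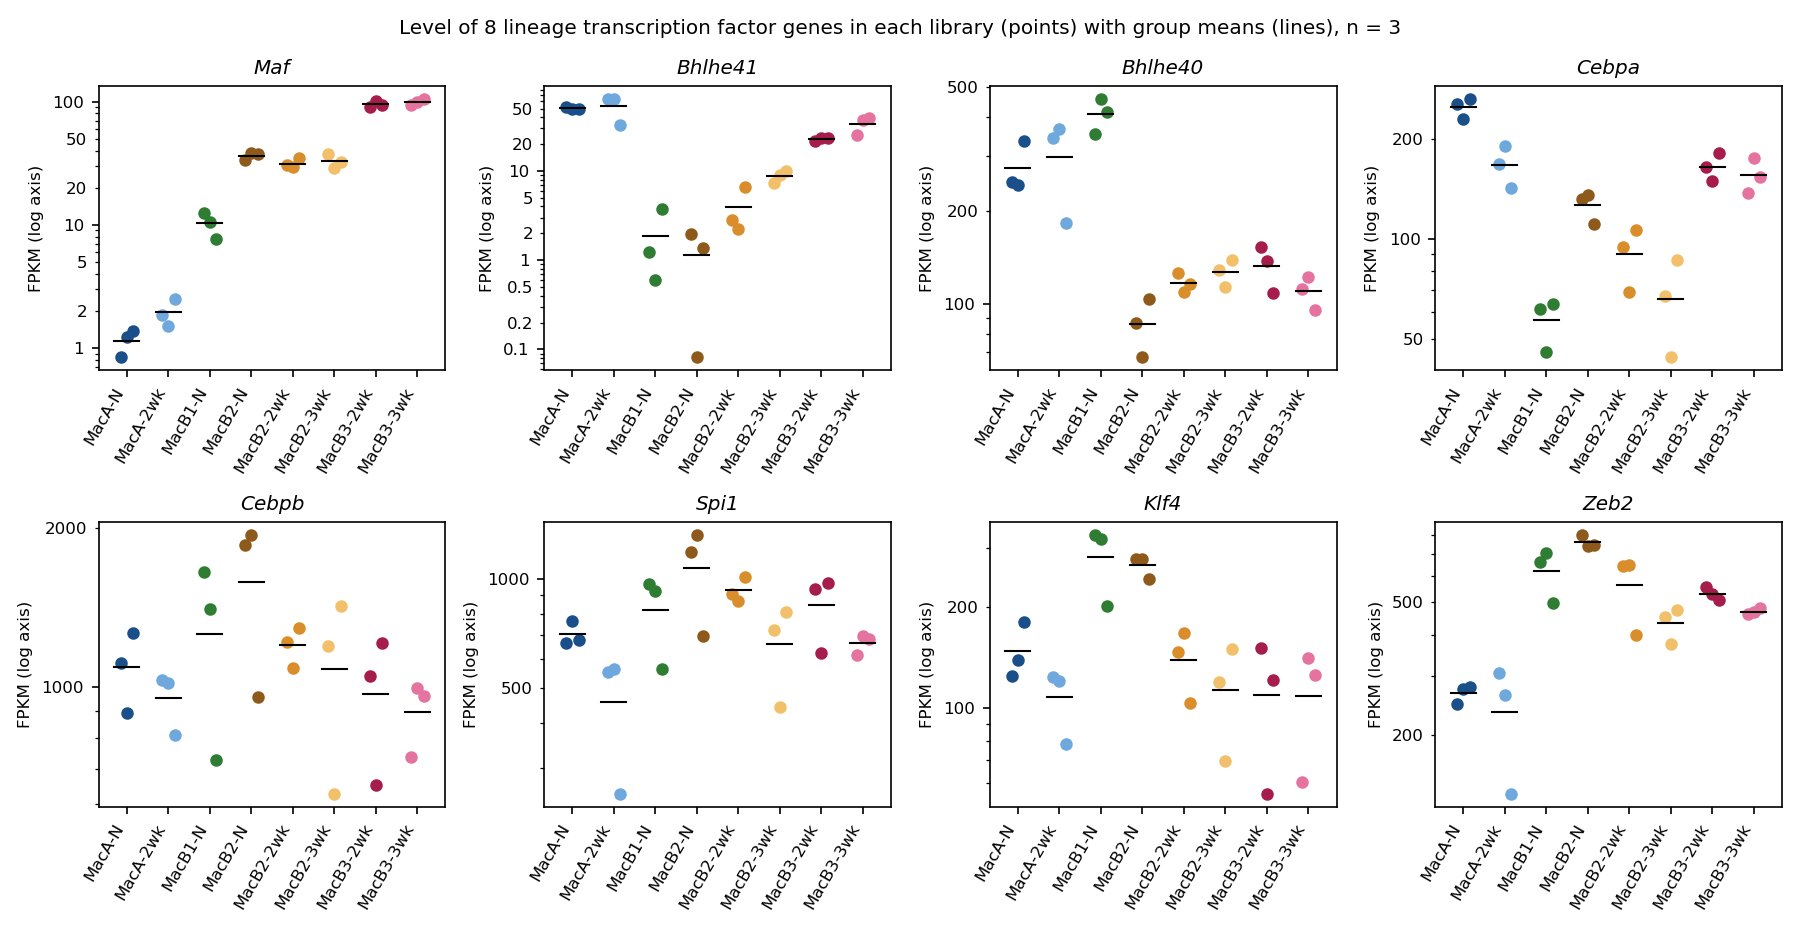
FPKM of each gene (log axis, a different range in each panel) in the 3 libraries of each group (points), with the group mean (line). Maf runs from 1.15 FPKM in MacA-N to 99.0 FPKM in MacB3-3wk, while the group means of Cebpb lie within 1.77-fold of each other.

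Bhlhe41 (ENSMUSG00000030256, chromosome 6, 145858243 to 145865558) also had a wide range, in another order. MacA-N held 52.2, 50.01 and 49.7 FPKM, a mean of 50.7 ± 1.37. The MacB1-N libraries were at 1.22, 0.606 and 3.72 FPKM and the MacB2-N libraries at 1.96, 0.0816 and 1.37 FPKM, so the naive MacB populations overlapped with each other and lay far below MacA-N. Against MacA-N, Bhlhe41 was lower in MacB1-N (log2 fold change -4.33, SE 0.40, adjusted p = 8.66e-08) and in MacB2-N (log2 fold change -4.72, SE 0.40, adjusted p = 2.51e-08). MacA-2wk had 64.1, 63.4 and 32.9 FPKM, where replicate 3 is the low one, and the difference from MacA-N was a log2 fold change of 0.02 (SE 0.40, adjusted p = 1).

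Within the tumour-bearing groups Bhlhe41 was not low in every MacB population. MacB2-2wk held 2.85, 2.25 and 6.65 FPKM, MacB2-3wk 7.35, 9.06 and 10.0 FPKM, MacB3-2wk 21.5, 23.5 and 23.4 FPKM and MacB3-3wk 25.4, 37.5 and 38.9 FPKM. Each of these groups lies above the one named before it with no overlap. The means were 3.92 ± 2.39, 8.82 ± 1.36, 22.8 ± 1.17 and 33.9 ± 7.41 FPKM in the same order, against 1.14 ± 0.963 in MacB2-N. Bhlhe41 rose in MacB2-3wk over MacB2-N (log2 fold change 2.31, SE 0.40, adjusted p = 3.61e-04). The step from MacB2-N to MacB2-2wk (log2 fold change 1.22, SE 0.40, adjusted p = 0.134) and that from MacB2-2wk to MacB2-3wk (log2 fold change 1.09, SE 0.40, adjusted p = 0.111) were not called, though the second was called without MacB2-2wk replicate 3 (log2 fold change 1.46, adjusted p = 0.0466). MacB3 was above MacB2 at 2 weeks (log2 fold change 2.38, SE 0.40, adjusted p = 6.52e-04). At 3 weeks it was also above MacB2 (log2 fold change 1.82, SE 0.40, adjusted p = 0.0128), but this call was lost without MacB2-3wk replicate 1 (adjusted p = 0.0587), MacB3-3wk replicate 2 (0.0585) or MacB3-3wk replicate 3 (0.0664), and with a pseudocount of 0.1 (0.165). From 2 to 3 weeks in MacB3 the difference was a log2 fold change of 0.53 (SE 0.40, adjusted p = 0.849).

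MacB3-2wk and MacB3-3wk had mean levels of Bhlhe41 between those of the 4 other MacB groups and MacA. The libraries of MacB3-3wk overlapped with those of MacA-2wk, and these groups were not tested against each other. MacB3-2wk was above MacB1-N (log2 fold change 3.21, SE 0.40, adjusted p = 7.87e-06) and below MacA-2wk by a difference that was not called (log2 fold change -1.13, SE 0.40, adjusted p = 0.0505, with an adjusted p of 0.0495 with the replicate block and 0.0216 without MacA-2wk replicate 3). MacB2-2wk was below MacA-2wk (log2 fold change -3.51, SE 0.40, adjusted p = 2.03e-06). The alveolar macrophage markers did not follow Bhlhe41 into MacB3: their 14 genes summed to 7992 to 14451 FPKM in the MacA libraries, 222 to 733 FPKM in MacB2 and 157 to 267 FPKM in MacB3, and Siglecf was at 2.83 FPKM in MacB3-2wk and 1.84 FPKM in MacB3-3wk.

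**Figure D2:**
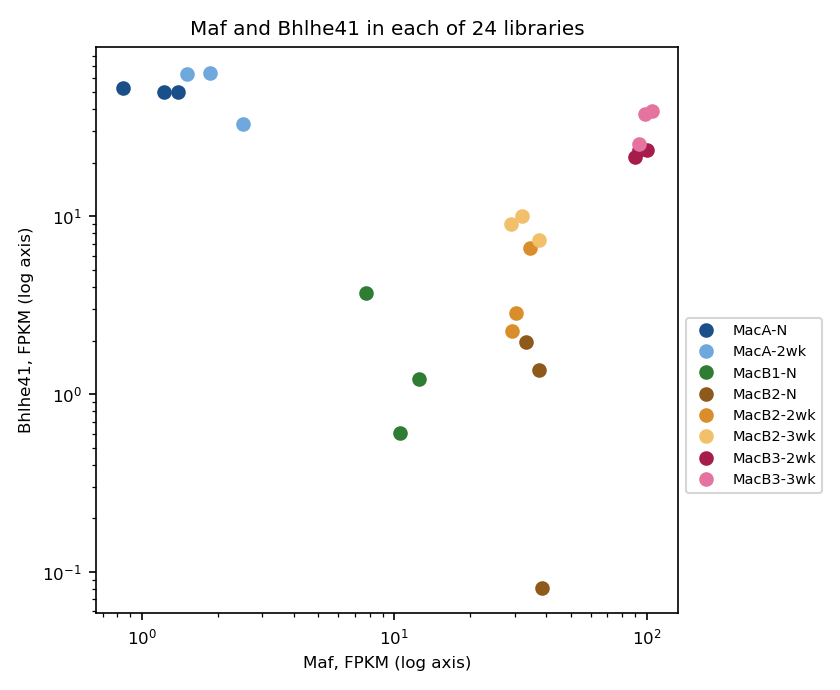
Level of Bhlhe41 (vertical, FPKM, log axis) against Maf (horizontal, FPKM, log axis) in each of the 24 libraries, coloured by group. MacA libraries combine high Bhlhe41 with Maf at 2.51 FPKM or less, naive MacB libraries show the reverse, and the 6 MacB3 libraries hold both, with Bhlhe41 from 21.5 FPKM and Maf from 89.9 FPKM upward.

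Bhlhe40 (ENSMUSG00000030103, chromosome 6, 108660629 to 108666925), the paralogue of Bhlhe41, was highest in MacB1-N, with 354, 458 and 417 FPKM and a mean of 409.6 ± 52.7. MacB2-N was the lowest group, with 87.1, 67.3 and 104 FPKM and a mean of 86.0 ± 18.1. The naive MacB populations therefore had Bhlhe41 at overlapping low levels and Bhlhe40 at separate ones (log2 fold change 2.25, SE 0.23, adjusted p = 3.48e-06). MacA-N, at 247, 241 and 335 FPKM, was above MacB2-N (MacB2-N minus MacA-N, log2 fold change -1.67, SE 0.23, adjusted p = 1.35e-05), and MacB1-N differed from it by a log2 fold change of 0.59 (SE 0.23, adjusted p = 0.0586), which was not called.

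With the tumour, Bhlhe40 in MacB2 was at 125, 109 and 116 FPKM at 2 weeks and 129, 113 and 139 FPKM at 3 weeks. Both lie above all of MacB2-N without overlap, yet neither difference was called (log2 fold change 0.46, SE 0.23, adjusted p = 0.368; log2 fold change 0.57, SE 0.23, adjusted p = 0.0873). MacB3 held 152, 138 and 108 FPKM at 2 weeks and 112, 122 and 95.8 FPKM at 3 weeks, which overlap with MacB2 of the same time. MacA-2wk had 343, 368 and 182 FPKM, again with replicate 3 lowest. Against MacA-2wk, Bhlhe40 was lower in MacB2-2wk (log2 fold change -1.28, SE 0.23, adjusted p = 3.56e-04) and in MacB3-2wk (log2 fold change -1.11, SE 0.23, adjusted p = 0.00162). The second of these fell under the 2-fold minimum without MacA-2wk replicate 1 (log2 fold change -0.97), MacA-2wk replicate 2 (-0.92) or MacB3-2wk replicate 3 (-0.97). With the compared groups fitted alone neither passed (adjusted p = 0.0546 and 0.0978). MacB3-2wk was also below MacB1-N (log2 fold change -1.62, SE 0.23, adjusted p = 3.32e-05).

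Taking the ratio of the paralogues within each library removes differences shared by both genes. Bhlhe41 over Bhlhe40 was 0.189 ± 0.0352 in MacA-N and 0.180 ± 0.00718 in MacA-2wk (mean ± SD, n = 3), and 0.00457 ± 0.00393 in MacB1-N. In MacB2 it was 0.0123 ± 0.0107 in naive lungs, 0.0336 ± 0.0207 at 2 weeks and 0.0698 ± 0.0116 at 3 weeks. MacB3 reached 0.176 ± 0.0382 and 0.313 ± 0.0896, a range that overlaps with MacA-N at 2 weeks and lies above it at 3 weeks. It is uncertain what the Bhlhe40 row counted, so these ratios do not say which paralogue was more abundant. They compare groups only as far as that row followed Bhlhe40.

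Cebpa (ENSMUSG00000034957, chromosome 7, 35119293 to 35121928) encodes the C/EBP factor that sets up the myeloid programme. It was highest in MacA-N, with 254, 229 and 263 FPKM and a mean of 249 ± 17.5. MacB1-N was lowest, with 61.3, 45.5 and 63.4 FPKM and a mean of 56.7 ± 9.78, and MacB2-N lay between them with 132, 135 and 111 FPKM. None of the 3 naive groups overlapped. MacB1-N was below MacA-N (log2 fold change -2.13, SE 0.21, adjusted p = 2.43e-07) and below MacB2-N (log2 fold change -1.15, SE 0.21, adjusted p = 0.00184), where the second call was lost without MacB1-N replicate 2 (log2 fold change -0.999, just under 2-fold). MacB2-N against MacA-N passed the p threshold and missed the 2-fold minimum (log2 fold change -0.98, SE 0.21, adjusted p = 0.00153).

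In the tumour-bearing lungs the CD11c+ and CD11c- MacB populations separated for Cebpa. MacB2 held 94.3, 68.8 and 106 FPKM at 2 weeks and 66.9, 43.9 and 86.0 FPKM at 3 weeks, all below MacB2-N. MacB3 held 164, 149 and 181 FPKM at 2 weeks and 137, 175 and 153 FPKM at 3 weeks, all above MacB2 of the same time. The difference of MacB2-3wk from MacB2-N was just under 2-fold (log2 fold change -0.98, SE 0.21, adjusted p = 0.00255), and it passed the minimum without MacB2-N replicate 3, MacB2-3wk replicate 1 or MacB2-3wk replicate 3 (log2 fold changes of -1.07, -1.02 and -1.20). MacB3 against MacB2 gave a log2 fold change of 0.89 (SE 0.21, adjusted p = 0.0108) at 2 weeks, under 2-fold and called only without MacB2-2wk replicate 3 (1.02) among the left-out libraries. At 3 weeks it was called (log2 fold change 1.27, SE 0.21, adjusted p = 0.00134), but not with the compared groups fitted alone (adjusted p = 0.0852). MacB3-2wk was above MacB1-N (log2 fold change 1.53, SE 0.21, adjusted p = 2.70e-05), and its difference from MacA-2wk, which held 168, 191 and 142 FPKM, was a log2 fold change of -0.01 (SE 0.21, adjusted p = 1), with a 95% interval of -0.46 to 0.43.

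Cebpb (ENSMUSG00000056501, chromosome 2, 167688915 to 167690418), which encodes the C/EBP factor of activated and inflammatory macrophages, had the highest listed values of the 8 and the narrowest range of group means. Its libraries ran from 627 FPKM (MacB2-3wk replicate 2) to 1937 FPKM (MacB2-N replicate 2), with a median of 1069 FPKM, and its group means from 897 ± 141 in MacB3-3wk to 1584 ± 545 in MacB2-N. Neighbours in the order of group means overlapped at every step. Cebpb was called in 0 of the 13 pairwise comparisons, and the largest difference was that of MacB2-3wk from MacB2-N (log2 fold change -0.56, SE 0.34, adjusted p = 0.276, 95% interval -1.29 to 0.16). Cebpa over Cebpb within a library separated the populations: it was 0.231 ± 0.0248 in MacA-N, 0.175 ± 0.0124 in MacA-2wk, 0.178 ± 0.0439 in MacB3-2wk and 0.174 ± 0.0133 in MacB3-3wk. It was lower in MacB1-N (0.0522 ± 0.0303), MacB2-N (0.0856 ± 0.0263), MacB2-2wk (0.0743 ± 0.00978) and MacB2-3wk (0.0622 ± 0.00710), and no library of these 4 groups reached the lowest of the former 4. What the Cebpb row counted is uncertain, as said above, which limits both its level and this ratio. The ratio has no test across all genes, and an exact permutation test of 3 against 3 libraries cannot go below a two-sided p of 0.1.

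**Figure D3:**
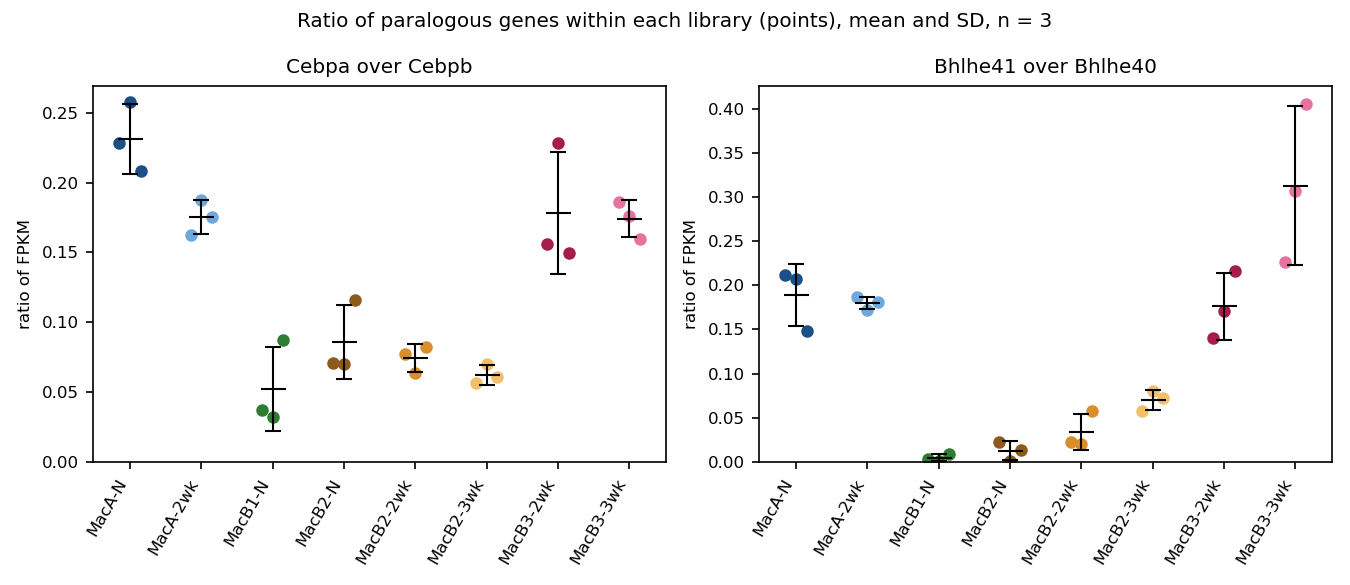
Ratio of FPKM between paralogues within each library (points) with mean and SD (bars), for Cebpa over Cebpb (left) and Bhlhe41 over Bhlhe40 (right). MacA and MacB3 libraries lie above MacB1 and MacB2 libraries in both panels.

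Spi1 (ENSMUSG00000002111, chromosome 2, 91082390 to 91115756) was high in every group, from 254 FPKM (MacA-2wk replicate 3) to 1316 FPKM (MacB2-N replicate 2). Group means went from 457 ± 175 in MacA-2wk to 1067 ± 328 in MacB2-N, with overlap between neighbours at every step of the order. The gene was called in 1 of 13 comparisons, MacB2-2wk against MacA-2wk, where 909, 867 and 1012 FPKM stood against 552, 564 and 254 FPKM (log2 fold change 1.11, SE 0.31, adjusted p = 0.0131). Without MacA-2wk replicate 3 this call was lost (log2 fold change 0.73, adjusted p = 0.0758), as it was with the compared groups fitted alone (adjusted p = 0.115). MacB3-2wk against MacA-2wk gave a log2 fold change of 0.95 (SE 0.31, adjusted p = 0.0373), just under 2-fold; leaving out MacA-2wk replicate 1, MacA-2wk replicate 2 or MacB3-2wk replicate 2 took it past 2-fold (1.13, 1.14 and 1.15). Spi1 and Cebpb shared much of their spread within groups: in 7 of the 8 groups the library with the lowest Spi1 was also the one with the lowest Cebpb. In 3 of these libraries, MacB1-N replicate 3, MacB2-N replicate 3 and MacA-2wk replicate 3, miRNA genes took 72.7%, 70.9% and 75.1% of all FPKM, the highest shares of the 24 libraries. In MacB3-2wk replicate 2 and MacB2-3wk replicate 2, also low for both genes, the share was 54.7% and 50.3%. The part of this share in the levels of Spi1 and Cebpb was not tested.

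Klf4 (ENSMUSG00000003032, chromosome 4, 55527143 to 55532466) was highest in the naive MacB populations, with 327, 318 and 201 FPKM in MacB1-N and 278, 278 and 243 FPKM in MacB2-N. MacA-N held 125, 139 and 180.2 FPKM, below both without overlap, but the differences were not called (log2 fold change 0.91, SE 0.37, adjusted p = 0.0675 for MacB1-N and log2 fold change 0.86, SE 0.37, adjusted p = 0.0941 for MacB2-N). Without MacB1-N replicate 3 the first passed (log2 fold change 1.13, adjusted p = 0.0458). In MacB2 the gene was at 147, 167 and 104 FPKM at 2 weeks and 120.0, 69.5 and 151 FPKM at 3 weeks, all below the naive libraries. The fall was called at 3 weeks (log2 fold change -1.29, SE 0.37, adjusted p = 0.0171) and not at 2 weeks (log2 fold change -0.96, SE 0.37, adjusted p = 0.217), and the call at 3 weeks was lost without MacB2-3wk replicate 2 (adjusted p = 0.0944) and with the compared groups fitted alone (0.0568). MacB3-2wk, with 151, 55.6 and 121 FPKM, was below MacB1-N (log2 fold change -1.44, SE 0.37, adjusted p = 0.00602), a call that was lost with these groups fitted alone (adjusted p = 0.0690). MacB3-3wk had 60.2, 142 and 126 FPKM and MacA-2wk 124, 121 and 78.5 FPKM, so that all 5 tumour-bearing groups overlapped with each other. The 14 endothelial markers, from a cell type that also makes Klf4, summed to 1067 to 1350 FPKM in MacB1-N, 364 to 1049 FPKM in MacB2-N, 473 to 1433 FPKM in MacB2-2wk, 170 to 205 FPKM in MacB2-3wk and 220 to 319 FPKM in MacB3-2wk. Against MacB2-N, the 14 endothelial markers had a median log2 fold change of 0.35 in MacB2-2wk and of -1.41 in MacB2-3wk, with 6 lower in the latter, where 14.7% of all genes were called. The 13 epithelial markers summed to 3753 to 13074 FPKM in MacB1-N, 3494 to 10422.5 FPKM in MacB2-N and 535 to 2541 FPKM in MacB2-2wk. They summed to 666 to 920 FPKM in MacB2-3wk and 181 to 620 FPKM in MacB3-2wk. The part of endothelial and epithelial cells in the Klf4 differences was not tested.

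Zeb2 (ENSMUSG00000026872, chromosome 2, 44983632 to 45117395) separated MacA from the MacB populations. MacA-N held 247, 275 and 278 FPKM, a mean of 267 ± 17.1, against 664, 704 and 497 FPKM in MacB1-N and 796, 737 and 744 FPKM in MacB2-N. It was higher in MacB1-N (log2 fold change 1.20, SE 0.24, adjusted p = 7.51e-04) and in MacB2-N (log2 fold change 1.51, SE 0.24, adjusted p = 7.46e-05) than in MacA-N, and the means of all 6 MacB groups lay above those of both MacA groups. In MacB2 the libraries were at 642, 649 and 399 FPKM at 2 weeks and 452, 376 and 474 FPKM at 3 weeks, all below the naive ones. The difference at 3 weeks passed the p threshold and was under 2-fold (log2 fold change -0.81, SE 0.24, adjusted p = 0.0215). MacB3 held 555, 529 and 508 FPKM and 461, 468 and 480.0 FPKM, overlapping with MacB2 of the same time (log2 fold change -0.05, SE 0.24, adjusted p = 0.957 at 2 weeks; log2 fold change 0.12, SE 0.24, adjusted p = 0.917 at 3 weeks). Against MacA-2wk, with 306, 264 and 133 FPKM, Zeb2 was higher in MacB2-2wk (log2 fold change 1.31, SE 0.24, adjusted p = 4.33e-04) and MacB3-2wk (log2 fold change 1.26, SE 0.24, adjusted p = 7.56e-04). Both fell under the 2-fold minimum without MacA-2wk replicate 3 (log2 fold changes of 0.95 and 0.90, adjusted p = 0.00127 and 0.00247), and neither passed with the compared groups fitted alone (adjusted p = 0.102 and 0.0812).

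Counted by comparison, 3 or 4 of the 8 members were called between the naive populations. MacB1-N against MacA-N called 4 of the 8 members, Maf and Zeb2 higher and Bhlhe41 and Cebpa lower, where 23.7% of all 17156 genes tested were called. MacB2-N against MacA-N also called 4, Maf and Zeb2 higher and Bhlhe40 and Bhlhe41 lower, against 20.9% of all genes. MacB1-N against MacB2-N called 3, Bhlhe40 higher and Cebpa and Maf lower, against 5.21% of all genes.

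Within a population, 0 to 2 of the 8 members were called. The share of all genes called was also below that of either naive MacB population against MacA-N. MacA-2wk against MacA-N called 0 of 8, against 0.787% of all genes, with 3 members and 1852 of 17156 genes at an unadjusted p under 0.05. MacB2-2wk against MacB2-N called 0, against 1.88% of all genes, with 3 members and 2547 of 17156 genes at an unadjusted p under 0.05. MacB2-3wk against MacB2-N called 2, Bhlhe41 higher and Klf4 lower, against 14.7% of all genes. MacB2-3wk against MacB2-2wk called 0, against 4.34% of all genes, with 2 members and 3703 of 17156 genes at an unadjusted p under 0.05. MacB3-3wk against MacB3-2wk called 0, against 0.315% of all genes, with 0 members and 1475 of 17156 genes at an unadjusted p under 0.05.

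Between populations of the tumour-bearing lung, MacB3 against MacB2 called Maf and Bhlhe41 at 2 weeks (2 of 8, all higher, against 7.36% of all genes). At 3 weeks it called Maf, Bhlhe41 and Cebpa (3 of 8, all higher, against 2.64%). MacB3-2wk against MacA-2wk called 3, Maf and Zeb2 higher and Bhlhe40 lower, against 14.5%. MacB2-2wk against MacA-2wk called 5, Maf, Spi1 and Zeb2 higher and Bhlhe40 and Bhlhe41 lower, against 17.7%. MacB3-2wk against MacB1-N called 5, Maf, Bhlhe41 and Cebpa higher and Bhlhe40 and Klf4 lower, against 21.5%. Several of these comparisons share a group, so their calls are not independent of each other.

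Whether a difference itself differed was tested with 2 interactions. The tumour response at 2 weeks in MacB2 against that in MacA called 0 of 8 members, against 0.221% of all genes. At an unadjusted p under 0.05 there were 2 members and 1692 of 17156 genes. The change from 2 to 3 weeks in MacB3 against that in MacB2 called 0 members, with 0 at an unadjusted p under 0.05, and 0% of all genes in limma, the one tool run, with 1121 of 17156 genes at an unadjusted p under 0.05. In the first interaction Maf gave a log2 fold change of -0.67 (SE 0.24, adjusted p = 0.344) and Bhlhe41 one of 1.20 (SE 0.57, adjusted p = 0.502). In the second Bhlhe41 gave a log2 fold change of -0.56 (SE 0.57, adjusted p = 0.915).

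**Figure D4:**
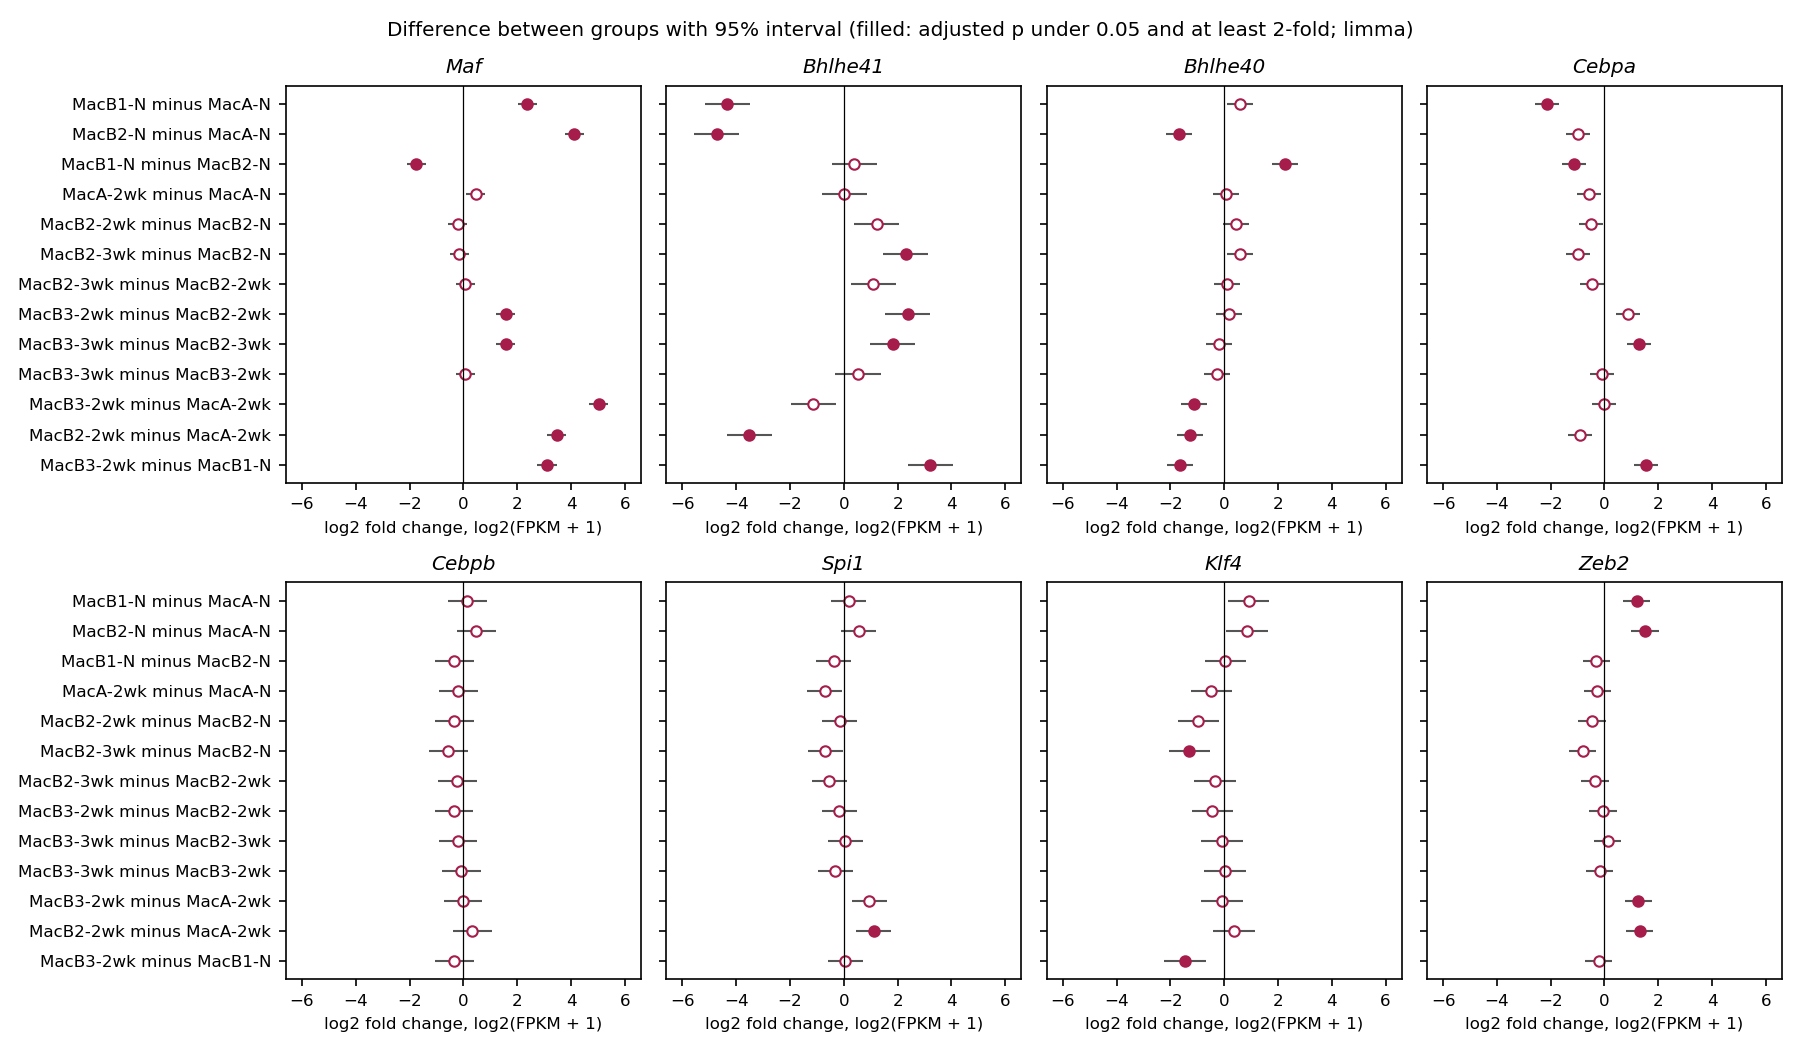
Log2 fold change on the log2(FPKM + 1) scale (horizontal) with its 95% interval for each gene in the 13 pairwise comparisons (rows), where filled points passed an adjusted p of 0.05 with at least 2-fold. Maf was called in 8 comparisons, Bhlhe41 in 7, Bhlhe40 in 5 and Cebpb in 0.

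Among other transcription factors of myeloid cells, a list of 39 genes had 38 tested. MacB1-N against MacA-N had 19 higher and 6 lower, with a median log2 fold change of 0.97 against 0.12 over all genes, and MacB2-N against MacA-N 14 higher and 7 lower (median 0.83 against 0.03). Over all genes, 23.7% and 20.9% were called in these comparisons, in that order.

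Pparg, the nuclear receptor that alveolar macrophages need to develop, was at 107 FPKM in MacA-N and 73.8 FPKM in MacA-2wk. In the MacB groups it was at 42.7 FPKM in MacB1-N, 10.5 FPKM in MacB2-N, 5.06 FPKM in MacB2-2wk, 2.44 FPKM in MacB2-3wk, 4.90 FPKM in MacB3-2wk and 4.06 FPKM in MacB3-3wk. It was thus low in MacB3, where Bhlhe41 was not, and MacB3-2wk was below MacB1-N for Pparg (log2 fold change -2.88, SE 0.32, adjusted p = 2.32e-06) but above it for Bhlhe41. Runx3, a factor of leukocyte differentiation, and Bcl6, a repressor, were among the genes higher in both naive MacB populations than in MacA-N, and Tfec, of the Mitf family, among the lower (MacB2-N minus MacA-N 7.28 for Runx3, 3.26 for Bcl6 and -3.76 for Tfec, as log2 fold changes). Irf8, a factor of monocytes and dendritic cells, was below MacB2-N in MacB1-N (log2 fold change -1.52, SE 0.22, adjusted p = 1.30e-04), where 10 dendritic cell markers summed to 779 to 1012 FPKM against 16.1 to 86.2 FPKM in the MacB2 and MacB3 libraries.

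Within MacB2 the same list had 3 higher and 0 lower at 2 weeks of tumour growth (median -0.23 against 0.03 over all genes), where 1.88% of all genes were called. At 3 weeks it had 4 higher and 10 lower (-0.46 against 0.00), where 14.7% of all genes were called. Myc, a driver of growth, was higher at both times (1.60 and 3.46), as was Egr2 (1.75 and 2.08). Among the lower at 3 weeks were Nr4a1, a factor of nonclassical monocytes, at 576 against 1836 FPKM (log2 fold change -1.74, SE 0.41, adjusted p = 0.00451), Irf8 at 39.8 against 91.1 FPKM (log2 fold change -1.17, SE 0.22, adjusted p = 6.33e-04) and Pparg (log2 fold change -1.73, SE 0.32, adjusted p = 7.33e-04). From 2 to 3 weeks in MacB2, 1 was higher (Myc) and 1 lower (Irf4), against 4.34% of all genes called. Fibroblast markers summed to 224 to 360 FPKM in MacB2-N and 878 to 1238 FPKM in MacB2-3wk. Of 10 markers of nonclassical monocytes, a list that holds Nr4a1, 9 were lower and 0 higher in MacB2-3wk than in MacB2-N, with sums of 542 to 945 against 2470 to 3431 FPKM. Of 10 markers of classical monocytes 5 were lower and 1 higher, with sums of 2303 to 2444 against 4749 to 6218 FPKM. The part of these markers in the differences was not tested. In MacB3 against MacB2 the list had 3 higher and 3 lower at 2 weeks, with Etv5 (2.84) and Nr1h3 (1.46) higher and Id3, an inhibitor of basic helix-loop-helix factors, lower (log2 fold change -1.79, SE 0.31, adjusted p = 8.13e-04). At 3 weeks 1 was higher (Irf8) and 1 lower (Id3, log2 fold change -1.52, SE 0.31, adjusted p = 0.0072), and from 2 to 3 weeks in MacB3 0 of 38 were called by limma. Over all genes the shares called were 7.36% and 2.64% for MacB3 against MacB2 at 2 and 3 weeks and 0.315% between the times in MacB3. For the remaining comparisons the counts were 4 higher and 3 lower in MacB1-N against MacB2-N, 8 and 5 in MacB3-2wk against MacA-2wk, 13 and 6 in MacB2-2wk against MacA-2wk, and 8 and 13 in MacB3-2wk against MacB1-N. The shares of all genes called there were 5.21%, 14.5%, 17.7% and 21.5%, in the same order.

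Genes reported as targets of the factors were followed as lists. Of 12 tested genes linked to Maf in macrophages, 6 were higher and 0 lower in MacB3 than in MacB2 at 2 weeks, with a median log2 fold change of 2.13 against -0.08 over all genes. At 3 weeks 7 were higher and 0 lower (1.88 against -0.04). Over all genes, 7.36% were called at 2 weeks and 2.64% at 3 weeks. C1qa, C1qb and C1qc, which encode the complement component C1q, led at 2 weeks (4.70, 4.27 and 4.48), with the mannose receptor gene Mrc1 (3.20). In the naive lung 8 of 12 were higher and 1 lower in MacB1-N than in MacA-N, and 7 higher and 1 lower in MacB2-N, where Mrc1 went against the rest (-5.27). Shares of all genes called were 23.7% for MacB1-N and 20.9% for MacB2-N. MacA-2wk against MacA-N had 3 higher and 0 lower, against 0.787% of all genes called. All were C1q genes (4.27, 3.64 and 4.49), in libraries in which Maf was at 1.52 to 2.51 FPKM. Itgam, which encodes the CD11b of the MacB gates, was also higher in these MacA libraries, at 17.3 against 2.30 FPKM (log2 fold change 2.58, SE 0.35, adjusted p = 5.23e-04), and the part of other cells in them was not tested. In MacB2 the C1q genes were also higher at 3 weeks than in naive lungs (2.15, 2.54 and 2.28), while Maf differed by -0.15. Summed over the list, MacB3 libraries held 6121 to 7805 FPKM, against 630 to 877 FPKM in MacB2, 615 to 857 FPKM in MacB1-N and 343 to 679 FPKM in MacA.

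For Klf4, 10 genes were listed as targets, 7 of them higher and 1 lower in MacB2-N than in MacA-N, where 20.9% of all genes were called. Among the leaders were Ccr2, Ly6c2 and Itgam, all markers of monocytes, so their differences are also those of the cell type. Itgam encodes the CD11b of the MacB gates, so its higher level was selected by the sort. In MacB2-3wk against MacB2-N, where Klf4 fell, 1 was higher and 3 lower, against 14.7% of all genes called. Nos2 rose (2.86), and among the lower Thbd and Ly6c2 fell (-1.32 and -1.63), with a list median of -0.26. Ly6c2 has near-identical copies, so its level is uncertain. MacB3 against MacB2 had 1 higher and 4 lower at both times, against 7.36% of all genes called at 2 weeks and 2.64% at 3 weeks. Of 15 targets of PU.1, 5 were higher and 1 lower in MacB2-N than in MacA-N, against 20.9% of all genes called. This list holds Itgam and Fcgr1, which encode the CD11b and CD64 of the MacB gates. In MacB2-2wk against MacB2-N 0 were called, against 1.88% of all genes. In MacB2-3wk against MacB2-N 1 was higher and 5 lower (median -0.46 against 0.00), among them Csf3r, Ptprc and Csf1r (-1.63, -1.46 and -1.25), while Spi1 itself gave a log2 fold change of -0.69 (SE 0.31, adjusted p = 0.134). Of 14 tested targets of C/EBP factors, 5 were higher and 2 lower in the same comparison (median 0.32), where 14.7% of all genes were called. The list was led by Arg1, which encodes arginase (7.08), while Cebpb was not called and Cebpa, as given above, was lower by just under 2-fold. Among 9 tested genes of macrophage self-renewal, a programme that Maf holds back in mice, 0 were higher and 0 lower in MacB3 than in MacB2 at 2 weeks, and 0 higher and 1 lower at 3 weeks (Jarid2, -1.50). Of 15 genes of proliferation, 12 were higher and 0 lower in MacB3 than in MacB2 at 2 weeks (median log2 fold change 1.40 against -0.08 over all genes). There, 7.36% of all genes were called. At 3 weeks their median was 0.25 (against -0.04). The part of Maf in the levels of these 2 lists was not tested. The self-renewal list holds Klf4, and in MacB2-3wk against MacB2-N it had 3 higher and 2 lower.

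The genes whose levels most resembled each member were found by Pearson's r of log2(FPKM + 1) over the 24 libraries among 9950 genes. The libraries share groups and lanes, so r describes likeness across groups and carries no test. Maf was most like Aif1 (r = 0.97), Cmklr1 (0.97) and Lat2 (0.97). Aif1, a calcium-binding protein of macrophages also called Iba1, was at 0.762 FPKM in MacA-N, 35.0 FPKM in MacB1-N and 92.6 FPKM in MacB2-N, and at 452 and 413 FPKM in MacB3 at 2 and 3 weeks. Bhlhe41 was most like Ctsd (0.98), Prune2 (0.97) and Axl (0.96). Ctsd, the lysosomal protease cathepsin D, was at 2261 FPKM in MacA-N, 118 FPKM in MacB2-N, 379 FPKM in MacB2-3wk and 1037 and 1200 FPKM in MacB3 (2 and 3 weeks), so that MacA and MacB3 were the high groups for it too. Axl, a receptor for the engulfment of dying cells, was at 621 FPKM in MacA-N, 56.4 FPKM in MacB2-N and 258 and 228 FPKM in MacB3.

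Zeb2 was most like Csf1r (0.93), the receptor for macrophage colony-stimulating factor, followed by Il10ra and Arhgap17 (0.93 each). Cebpa was most like Arl11 (0.92), Neu1 (0.89) and Siglec1 (0.89), and Bhlhe40 most like Mreg (0.91), Rps6ka2 (0.89) and Ubxn2a (0.89). Mreg was at 10.2 FPKM in MacA-N and 11.04 FPKM in MacB1-N and was listed at 0 in MacB2-N, the group with the lowest Bhlhe40. Spi1 was most like Was (0.92), Tgfb1 (0.91) and Iscu (0.90), and Klf4 most like Fmnl1 (0.91), Foxk1 (0.90) and Dock2 (0.90). Cebpb had the lowest best value, with Tmem259 at 0.86, Rhog at 0.85 and Brpf1 at 0.81.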

How the data were processed

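RNA-seq values of sorted mouse lung cells were analysed in 24 libraries. The authors deposited 1 FPKM value per gene and library. The submitters' processing notes name FastQC for read quality, TopHat2 (version 2) and mm10 for alignment, and Cufflinks 2.0.2 for the FPKM. The header names no unit, so FPKM rests on these notes. Per the labels, a NuGen Ovation FFPE kit was used; the use of strand is not given in sources used here. Loci in the table overlapped GENCODE M21 (GRCm38) for 4218 of 32917 matched genes, so positions were taken from GENCODE by Ensembl identifier.

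Values were not rescaled. Log2(FPKM + 1) values of the 17156 genes that reached 1 FPKM as a group mean were fitted over all 24 libraries in limma 3.58.1 (R 4.3.3), with a mean for each group, a moderated variance with a trend, and 16 degrees of freedom left. The 13 pairwise comparisons and 2 interactions were contrasts, with p-values adjusted by Benjamini-Hochberg over all genes. In data simulated for MacB2-3wk against MacB2-N, 200 of 17156 genes were changed, where the real comparison called 2524. At an adjusted p under 0.05, without the 2-fold minimum, 25 of 100 genes changed 2-fold and 62 of 100 changed 4-fold passed. Of the unchanged genes, 2 passed. Recovery under the full rule for a call was not simulated. Sample titles were followed where the design text calls the MacB3 samples of 2 weeks by the 3-week name.

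In the MacB groups a replicate number marks a shared run lane. MacB libraries of the same number had a median correlation of deviations from their group means of 0.020, -0.0029 and 0.00041 for replicates 1, 2 and 3, against -0.0023 between different numbers, and a block on the number was tried as an alternative. Other alternatives were a pseudocount of 0.1, no filter, quantile and median-ratio scaling, the compared groups alone, and each library left out.

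The 8 members, the 19 gene lists (250 of 253 entries matched) and the comparisons were chosen with earlier results of these data known. All members were named, with Pparg, Irf8, Nr4a1 and Id3, and the sorting markers apart from Itgax, whose level is not given. Some results that the naming rule covers are not reported here. From each list up to 4 called genes with the smallest adjusted p could be named in a comparison. For likeness, the 3 genes with the highest Pearson r were taken among tested, properly named genes that reached 5 FPKM as the mean of any group.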

Additional observations from a re-analysis of the deposited data

How the results depend on the processing

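Over 8 members and 15 comparisons there were 120 values, of which 31 were called. Of these, 21 were called under every alternative run and 10 lost the call under at least 1, while 8 uncalled values were called under at least 1. No called value changed sign, and 72 of 1536 alternative values changed sign without being called. With the compared groups alone, fewer libraries gave the spread, and the members called went from 2 to 1 in MacB2-3wk against MacB2-N, from 3 to 1 in MacB3-2wk against MacA-2wk, from 5 to 2 in MacB2-2wk against MacA-2wk, from 3 to 2 in MacB3-3wk against MacB2-3wk and from 5 to 4 in MacB3-2wk against MacB1-N. Leaving out each library in turn gave 1 to 3 members in MacB2-3wk against MacB2-N, with 1 without MacB2-3wk replicate 2, and 0 to 1 in MacB2-3wk against MacB2-2wk, with 1 without MacB2-2wk replicate 3. The cause of these changes was not tested. With the replicate block, 1 call changed: Bhlhe41 in MacB3-2wk against MacA-2wk passed, for 4 members in place of 3, and the block changed no other call.

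Quantile scaling moved the median log2 fold change of all genes by -0.16 in MacB1-N against MacA-N, -0.15 in MacB1-N against MacB2-N, -0.14 in MacB2-3wk against MacB2-N, 0.10 in MacB3-2wk against MacB2-2wk and 0.16 in MacB3-2wk against MacB1-N. It ended the calls of Zeb2 in MacB3-2wk against MacA-2wk (log2 fold change 0.85) and of Spi1 in MacB2-2wk against MacA-2wk (0.71). Absolute depth is unknown, so no floor can be given for the low levels of Bhlhe41 and Maf.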
